A study of Bombyx mori with 12 samples.

Results

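Trimolter larvae of the silkworm Bombyx mori were compared between the 2 labelled batches of the study, in the 6 of 12 libraries whose labels give tri-molting: 3 libraries of batch 1 and 3 of batch 2. The labels place each library in its group. All larvae were of the strain 'Guangri 3' (spelled Gurangri 3 in the sample labels), in which a trimolter enters its last larval instar after 3 molts and a tetramolter goes through a further molt. The tissue was the cephalothorax, head and thorax pooled, collected at the molt of the third larval instar from larvae that each came from a single female moth, and libraries were made from poly(A) RNA. The study reared a spring group at 25 °C and an autumn group at 30 ± 2 °C, with fresh mulberry leaves for both and with differences in humidity and day length. No label names the season of a batch, so the groups are called batch 1 and batch 2, and season, temperature, parent moths and sequencing batch cannot be told apart. No label ties a library to 1 animal, so p-values measure the spread between these libraries, which may be technical.

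As background, a larval molt is driven by a pulse of ecdysteroids from the prothoracic glands, while juvenile hormone from the corpora allata keeps the molt larval. Both glands lie in the cephalothorax. Under the old cuticle the epidermis makes the proteins of the next one in an ordered sequence, so the levels of cuticle protein transcripts depend on how far a molt has gone. Raised temperature is known to speed insect development and to induce heat shock proteins.

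Library totals ranged from 13420645 to 15404513 counts over the 6 libraries. The replicates of batch 1 spread more than those of batch 2. The SD of log2 CPM (CPM are counts per 1e+06 counts of a library after TMM scaling) averaged 0.391 over genes in batch 1 and 0.213 in batch 2, and it was larger in batch 1 for 7785 of 10260 genes. Batch 1 trimolter 1 had the highest value of the 6 libraries for 22.9% of genes and the lowest for 23.5%. Silk gland markers were at or near 0, with no member tested of 5. The summed share of muscle markers was 2.33%, 0.956% and 1.502% of counts in batch 1 libraries 1, 2 and 3, and 1.96%, 1.62% and 1.70% in those of batch 2. That of midgut markers was 1.11%, 2.35% and 2.28%, and 1.59%, 1.25% and 1.54%. For both lists the batch 2 range lay within the batch 1 range. Library 2 of batch 1 was the lowest in muscle transcripts, and library 1 of batch 1 the lowest in midgut transcripts. In pooled tissue, fewer cells of a type and less RNA per cell cannot be told apart.

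The main test asked which transcripts differed between the batches. Of 10260 tested genes 135 passed edgeR's quasi-likelihood test at an adjusted p under 0.05 (called in the following), which is 1.32%. In batch 2, 78 were higher (0.76%) and 57 lower (0.556%), and 112 of the 135 differed by at least 1 log2 unit. In each of the 135 genes all 3 batch 2 libraries lay outside the range of batch 1, as did 31.7% of all tested genes. The median log2 fold change over all genes was -0.02. With 1.32% of all genes called, no call in a short gene list is near that share and is not a result about the list. At an unadjusted p under 0.05 there were 2455 genes, 1192 higher and 1263 lower. The number of calls depended on single libraries of either batch. It rose to 1118 and 1120 without batch 1 trimolter 1 or 2, and fell to 27 without batch 1 trimolter 3 and to 4, 1 and 8 without batch 2 trimolter 1, 2 or 3. None of the 135 genes changed direction in any of these 6 fits. A fit to all 12 libraries, which also uses the spread of the tetramolters, called 1664 of 10721 genes (15.5%), 803 higher (7.49%) and 861 lower (8.03%), and 134 of the 135 were among them.

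Among called genes with a symbol, the 4 largest falls in batch 2 were in ND2, ND4L, ND5 and ND1 of the mitochondrial genome, which encodes 13 subunits of the respiratory chain and ATP synthase. Of the 11 tested, 7 were called lower and none higher, where 0.556% of all genes were called lower, and the median log2 fold change was -1.94. In 10 of the 11 all batch 2 libraries lay below all batch 1 libraries, as in 15.1% of all genes.

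ND2 (gene ID 809265), a subunit of complex I, was at 124.3, 77.4 and 111.7 CPM in batch 1 trimolters 1, 2 and 3 and at 0.198, 0 and 0.0677 CPM in those of batch 2. This amounts to 4593 counts against 4, and no batch 2 library came near the lowest of batch 1 (log2 fold change -10.1, SE 0.79, edgeR adjusted p = 0.00113). ND1 (gene ID 809263), of the same complex, was at 340, 175.5 and 239.7 CPM in batch 1 and at 10.04, 6.70 and 4.399 CPM in batch 2 (log2 fold change -5.16, SE 0.35, adjusted p = 0.0114). For ND5 (gene ID 809258), also of complex I, the values were 24, 11.03 and 15.9 CPM against 0.463, 0.398 and 0.406 CPM (log2 fold change -5.30, SE 0.41, adjusted p = 0.01). In all 3 genes library 1 of batch 1 was the highest and library 2 its lowest. ND4L had 193 counts over the batch 1 libraries and 3 over those of batch 2, which is 66.4 times as many per scaled library (22.4 to 325 times, exact 95% limits for counting error). ATP6, of ATP synthase, was at 19.1, 9.54 and 19.8 CPM in batch 1 and at 4.43, 3.12 and 2.98 CPM in batch 2 (log2 fold change -2.20, SE 0.32, adjusted p = 0.0343). COX3, of cytochrome c oxidase, and ND4, both named here after their values were seen, were called with log2 fold changes of -1.94 and -1.64 (adjusted p = 0.0288 and 0.0453).

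The genes of this genome were unequal. COX1, the core subunit of cytochrome c oxidase, was at 4610, 2367 and 3156 CPM in batch 1 and at 2748, 2704 and 2623 CPM in batch 2, so that the groups overlapped (log2 fold change -0.33, 95% interval -0.97 to 0.32, adjusted p = 0.495). COX2 had a log2 fold change of -0.57, ND3 of -0.78 and CYTB, of complex III, of -1.32, and none of them passed (adjusted p = 0.23, 0.127 and 0.0964). These 4 genes were named after their values were seen. The nuclear genes of the respiratory chain had a median of 0.02, with 0 of 7 called. In the RefSeq order of genes ND5, ND4 and ND4L are neighbours, as are ND1 with ND2 and ATP6 with COX3 among tested genes. The sources used here do not say whether counting used strand, so reads of overlapping or opposite transcripts cannot be assigned. Poly(A) selection and counting belong to a batch as much as rearing does, and their part in the result was not tested. The call of ND2 held with each library left out (adjusted p 0.000979 to 0.0208). That of ND1 was lost without batch 2 trimolter 2 (0.0768) and that of ND5 without batch 2 trimolter 1 or 2 (0.058 and 0.0681). Those of ND4L, ATP6, COX3 and ND4 were lost without batch 1 trimolter 3 or any batch 2 library (adjusted p of up to 0.207).

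**Figure D1:**
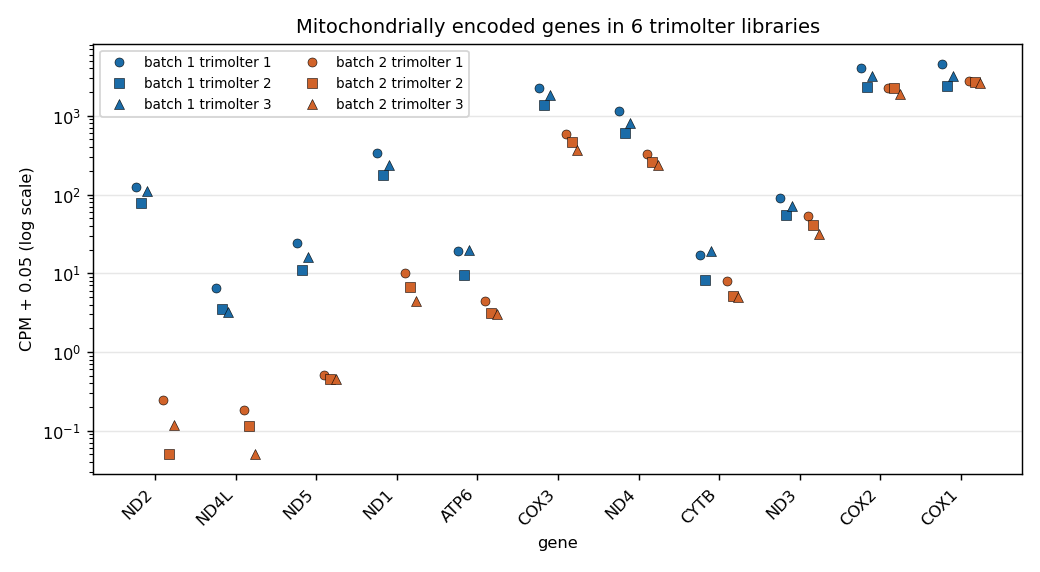
CPM plus 0.05 on a log scale for each of the 11 tested protein genes of the mitochondrial genome, with 1 point per trimolter library. Batch 1 is blue and batch 2 orange, and the symbol gives the replicate. For ND2 the batch 1 libraries sit between 77.4 and 124.3 CPM and the batch 2 libraries between 0 and 0.198 CPM, while for COX1 the groups overlap.

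Cuticle protein transcripts were called lower in batch 2 for 10 genes and higher for none. Of 87 tested genes with the Rebers and Riddiford motif (RR), which binds chitin, 4 were called lower (4.598%, against 0.556% of all genes) and 83 did not pass. Of 62 other cuticle protein genes, among them the glycine-rich CPG and the CPH families, 6 were called lower (9.68%) and 56 did not pass. The median log2 fold changes were -0.52 for each list, against -0.02 for all genes. That of the RR genes moved with single libraries, to -0.151 without batch 1 trimolter 1 and to -0.755 without batch 1 trimolter 2, and that of the other cuticle genes ranged from -0.702 to -0.4 with 1 library left out. Batch 2 lay wholly below batch 1 for 24 and 19 members of these lists (27.6% and 30.6%), as for 15.1% of all genes, and wholly above for 4 and 2 (4.598% and 3.23%), as for 16.6% of all genes.

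CPR104 (gene ID 692394), of the RR family, was at 261.3, 86.2 and 256.6 CPM in batch 1 trimolters 1, 2 and 3 and at 12.2, 15.3 and 18.1 CPM in batch 2. Its lowest batch 1 library was thus several times the highest of batch 2 (log2 fold change -3.73, SE 0.41, edgeR adjusted p = 0.0187). Its neighbour CPR105 was at 35.7, 28.6 and 64.3 CPM against 6.67, 8.43 and 7.11 CPM (-2.53, SE 0.30, adjusted p = 0.0201). CPR44 was at 141.4, 64.8 and 248.4 CPM against 18.1, 15.9 and 20.3 CPM (-3.07, SE 0.43, adjusted p = 0.0358). In these genes the batch 2 libraries lay close together and those of batch 1 spread over more than a doubling. CPR6 fell less, from 20.7 ± 4.30 to 7.64 ± 2.07 CPM (SD, n = 3 each; -1.44, SE 0.24, adjusted p = 0.0487).

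Of the glycine-rich genes, CPG5 (gene ID 100379517) was at 568.5, 498.7 and 870.3 CPM in batch 1 and at 170.0, 142.6 and 135.7 CPM in batch 2 (-2.11, SE 0.24, adjusted p = 0.0182). CPG22 was at 36.3, 37.9 and 95.5 CPM against 6.87, 4.84 and 6.50 CPM (-3.22, SE 0.40, adjusted p = 0.0247). Batch 1 trimolter 3 was the highest library for both. CPG21 fell from 140.4 ± 10.3 to 55.9 ± 10.2 CPM (-1.33, SE 0.17, adjusted p = 0.0201). CPG4, named after its value was seen, fell from 5164 ± 1132 to 1805 ± 132.1 CPM (-1.52, adjusted p = 0.0367). Of the CPH family, CPH18 and CPH32 fell by 2.80 and by 2.99 on the log2 scale (SE 0.36 and 0.50, adjusted p = 0.0258 and 0.0483). CPG4, CPG5 and CPH32 are next to each other among tested genes in the RefSeq order. Counts of near-identical cuticle genes depend on the assignment of shared reads, on which the sources used here are silent.

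Leaving out 1 batch 2 library changed the fold changes of the called cuticle genes little, while the calls were lost. Without batch 2 trimolter 1, 2 or 3 the log2 fold change of CPR104 was -3.59, -3.73 and -3.87, and that of CPG5 was -2.21, -2.07 and -2.04. All 10 calls were lost without any 1 of these libraries (adjusted p 0.093 to 0.204), and 6 of the 10 without batch 1 trimolter 3 (up to 0.159). All 10 held without batch 1 trimolter 1 or 2 (0.00107 to 0.0287). The summed share of RR genes was 6.55%, 4.79% and 6.07% of counts in batch 1 libraries 1, 2 and 3 and 3.83%, 4.07% and 3.52% in batch 2. For the other cuticle genes the shares were 8.08%, 2.76% and 5.53% against 3.39%, 3.78% and 3.38%, so that batch 1 trimolter 2 lay below all batch 2 libraries.

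**Figure D2:**
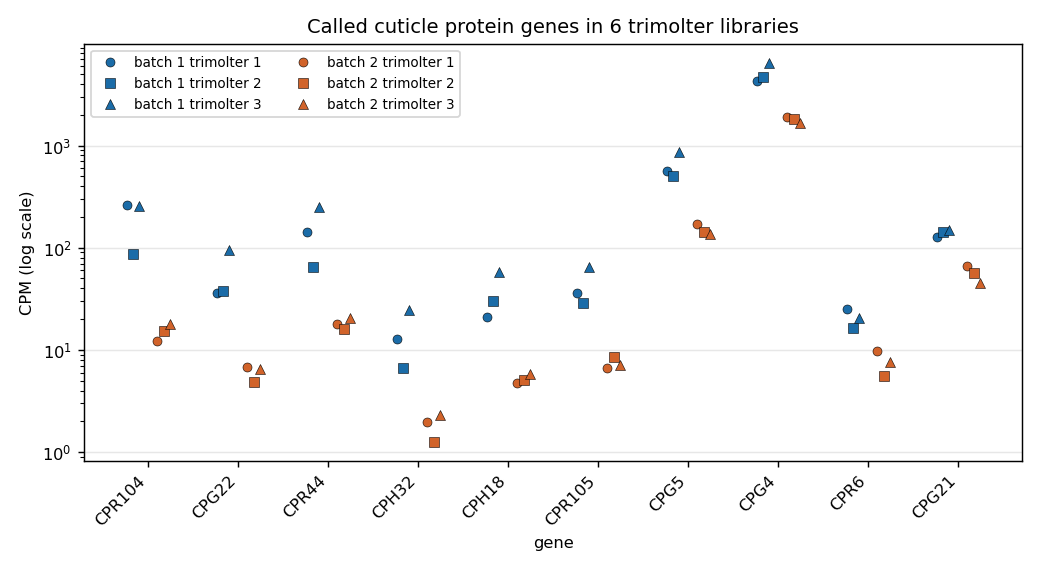
CPM on a log scale for the 10 called cuticle protein genes, with 1 point per trimolter library (blue, batch 1; orange, batch 2; the symbol gives the replicate). The batch 2 libraries lie below all batch 1 libraries in each gene, for CPR104 at 12.2 to 18.1 against 86.2 to 261.3 CPM.

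Several cuticle genes with wide differences were not called, and their batch 1 libraries differed among themselves. CPR39 was at 32.8, 59.2 and 517.9 CPM in batch 1 and at 3.11, 3.12 and 4.33 CPM in batch 2 (log2 fold change -5.85, SE 0.99, adjusted p = 0.061). CPR71 was at 313.1, 36.1 and 821.7 CPM against 20.0, 29.1 and 22.9 CPM (-4.02, SE 0.87, adjusted p = 0.0812). In both, trimolter 3 of batch 1 was the highest and no batch 2 library reached the batch 1 range. CPR65 showed another pattern, with single libraries high in either batch: 272.5, 1.12 and 3.13 CPM in batch 1 and 1.65, 198.8 and 51.0 CPM in batch 2 (-0.14, adjusted p = 0.973). Its SD of log2 CPM was 4.142 log2 units in batch 1 and 3.499 in batch 2. CPR39, CPR71 and CPR65 were chosen after their values were seen. Among the 8 tested genes of chitin turnover none was called, where 1.32% of all genes were. The chitinase gene Chi was at 12.2, 6.93 and 44.9 CPM in batch 1 and at 4.23, 3.98 and 3.04 CPM in batch 2 (-2.51, SE 0.66, adjusted p = 0.0959), and was also chosen after its values were seen.

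Of the hormone genes 2 were called, each higher in batch 2. Cyp306a1 (gene ID 100127116), the cytochrome P450 known from the fly as phantom, which hydroxylates an ecdysteroid precursor, was at 18.5, 19.8 and 13.4 CPM in batch 1 and at 39.0, 36.4 and 32.8 CPM in batch 2. The groups did not overlap (log2 fold change 1.07, SE 0.17, edgeR adjusted p = 0.0414). Jheh-lp2 (gene ID 100307009), by its name an epoxide hydrolase like those that break down juvenile hormone, was at 1.28, 1.71 and 1.44 CPM against 4.69, 4.18 and 4.399 CPM (1.58, SE 0.24, adjusted p = 0.0358). Both calls held without batch 1 trimolter 1 or 2. They were lost without batch 1 trimolter 3 (adjusted p = 0.0887 and 0.134) and without any batch 2 library (0.149 to 0.177 and 0.166 to 0.172).

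Of the other tested genes of ecdysteroid synthesis none of 4 passed. Cyp302a1, Cyp315a1 and Cyp314a1, which carry out the last hydroxylations, were near 1 CPM in both batches, with log2 fold changes of -0.15, 0.11 and 0.48 and 95% intervals from -1.13 to 0.83, -0.81 to 1.03 and -1.03 to 1.99. Cyp18a1, which inactivates ecdysteroids in the fly, was at 0.32 (-0.05 to 0.68). Of genes acting earlier in the pathway, Nvd had 20 counts in batch 1 and 10 in batch 2, and Cyp307a1 1 and 2 counts, too few for a test. Jhamt, the methyltransferase of juvenile hormone synthesis, had 6 and 10 counts.

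None of the 7 tested ecdysone response genes was called, where 1.32% of all genes were, and 6 of 7 fold changes were below 0. E74, an early response gene, was at 156.8, 99.7 and 143.1 CPM in batch 1 and at 83.9, 96.7 and 75.4 CPM in batch 2 (log2 fold change -0.64, SE 0.20, adjusted p = 0.124). The receptor gene EcR (-0.14, 95% interval -0.59 to 0.30), its partner USP (-0.26, -0.61 to 0.08), Br-c (-0.30, -0.84 to 0.24), Hr3 (-0.18, -0.87 to 0.51), Ftz-f1 (-0.17, -0.49 to 0.14) and E75 (0.04, -0.29 to 0.36) did not pass. For these 6 genes a difference of more than 1 log2 unit in either direction lay outside the interval, whereas that of E74 ran from -1.11 to -0.17.

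Of 14 tested genes of juvenile hormone response and turnover, only Jheh-lp2 was called (7.14%, against 1.32% of all genes). BmMET2, a gene of the juvenile hormone receptor family, was at 0.404, 1.27 and 0.457 CPM in batch 1 and at 4.63, 4.25 and 2.17 CPM in batch 2, so that the groups did not overlap, but did not pass (log2 fold change 2.38, SE 0.53, adjusted p = 0.0727). It was called in the fit to all 12 libraries (adjusted p = 0.0227). The other receptor gene, MET1, was at -0.39 (95% interval -0.72 to -0.07, adjusted p = 0.154). Kr-h1, a transcription factor gene induced by juvenile hormone, was at 43.5, 52.5 and 35.5 CPM against 56.5, 48.2 and 50.4 CPM, with overlap (0.24, -0.15 to 0.63). Jheh2 (-0.36, -0.82 to 0.10), jhe1 (-0.10, -0.65 to 0.45) and Jhdk (0.32, -0.81 to 1.44), which break the hormone down, did not pass, nor did Hmg-r (-0.52, -0.94 to -0.10, adjusted p = 0.146), of the mevalonate pathway.

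Among genes outside the hormone lists, 5 with a symbol rose in batch 2. UGT33D7, a UDP-glycosyltransferase, had 3 counts over the batch 1 libraries and 220 over those of batch 2, which is 71.0 times as many per scaled library (24.0 to 347 times, exact 95% limits for counting error). CLIP3 (gene ID 732952), a gene named for the clip domain of haemolymph proteases, was at 61.9, 129.5 and 52.6 CPM in batch 1 and at 312.3, 354.3 and 309.8 CPM in batch 2 (log2 fold change 2.00, SE 0.33, edgeR adjusted p = 0.049). Batch 1 trimolter 2 was the highest of its group but below all of batch 2. Slp rose from 12.6 ± 4.21 to 38.6 ± 9.10 CPM (1.62, SE 0.28, adjusted p = 0.0495). Faah, by its name a fatty acid amide hydrolase, rose by 0.73 (SE 0.12) and Bmp-2 by 0.70 (SE 0.11), from 50.7 ± 3.99 to 84.1 ± 4.26 CPM and from 76.6 ± 1.87 to 124.6 ± 3.84 CPM (adjusted p = 0.0431 and 0.0419). These 5 calls were lost without batch 1 trimolter 3 (adjusted p 0.1 to 0.174) or any batch 2 library (0.103 to 0.191).

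**Figure D3:**
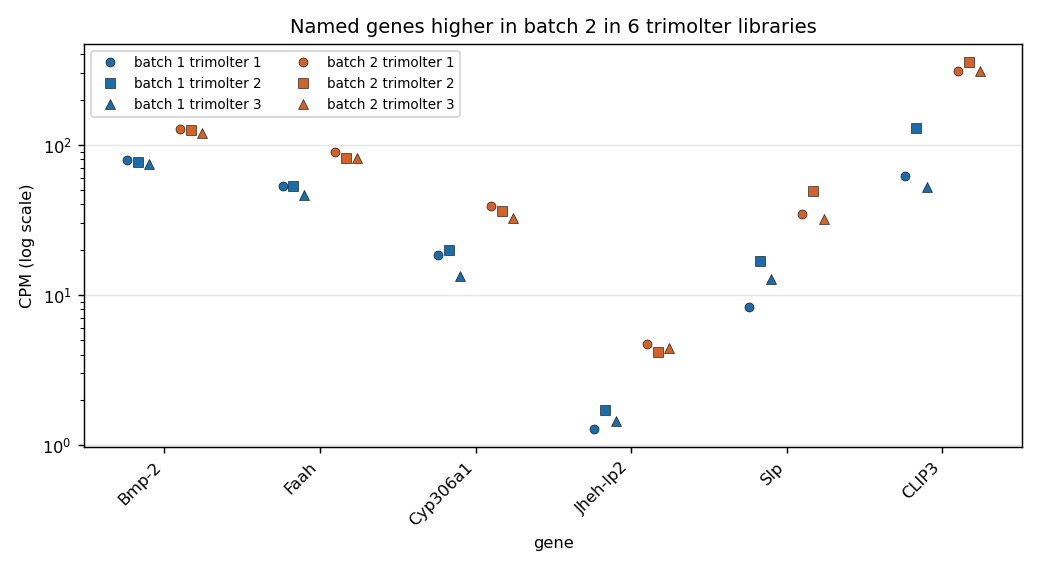
CPM on a log scale for the 6 named genes called higher in batch 2, other than UGT33D7, with 1 point per trimolter library (blue, batch 1; orange, batch 2; the symbol gives the replicate). Each gene has all batch 2 libraries above batch 1, as for Cyp306a1 at 32.8 to 39.0 against 13.4 to 19.8 CPM.

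Most of the called genes carry no gene name: 106 of the 135 had only a LOC number or an ID, and 71 of the 78 higher in batch 2 were of this kind. Most deposited rows lack a name in any case: 1444 of 17583 rows had such a symbol, 511 of the 17583 being left out. These rows include genes too low to test, and the share over the tested genes was not counted. Of the called genes with a symbol, 7 were among the 78 higher and 22 among the 57 lower. LOC101740670 had no count in any batch 1 trimolter and 387 counts in batch 2, at 8.72, 10.7 and 6.36 CPM, and was at least 125-fold higher against a floor of 3 counts over the group. LOC101740769 was at 0, 0.0745 and 0.261 CPM in batch 1 and at 35.1, 33.9 and 13.5 CPM in batch 2 (log2 fold change 7.81, SE 1.06, edgeR adjusted p = 0.0114). LOC778498 was at 0.472, 0.298 and 0.196 CPM against 17.8, 8.69 and 8.66 CPM (5.15, SE 0.52, adjusted p = 0.0114). In the tetramolters LOC101740769 differed in the same direction (6.93), whereas LOC101740670 and LOC778498 had counts in both batches and did not pass there (-1.14 and -0.77). LOC692743, a locus that RefSeq lists under the biotype other, was at 195.7, 754.3 and 257.2 CPM against 3304, 3388 and 3351 CPM (3.06, SE 0.49, adjusted p = 0.0487). Falls of this kind were called too. Gene ID 119630861 was at 94.0, 69.2 and 111.4 CPM in batch 1 and at 6.67, 5.37 and 1.49 CPM in batch 2 (-4.34, SE 0.46, adjusted p = 0.0179). A row without a gene name, whose ID gives an RNA interval of the mitochondrial sequence, was at 423.4, 193.7 and 242.4 CPM against 22.9, 20.2 and 13.9 CPM (-3.91, SE 0.32, edgeR adjusted p = 0.0114). It was called lower in batch 2 tetramolters too (-5.2, adjusted p = 1.54e-06). It is not among the mitochondrial protein genes described above, nor in the summed share of those genes. These loci and their neighbours were chosen after their values were seen. Of the 106 calls without a symbol, 88 were lost without batch 1 trimolter 3, and 104, 106 and 102 without batch 2 trimolter 1, 2 or 3.

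Of the 124 called genes with a place in the RefSeq table, 22 had another called gene as their neighbour among tested genes, in 10 runs. Each of the 10 runs went in 1 direction. No rate of neighbouring calls over the 9813 tested genes with a place was computed, so clustering of the calls was not tested. Beside the mitochondrial and cuticle runs already given, LOC101740670 was next to LOC101745274 on chromosome 9, both higher in batch 2, and LOC119630411 was next to LOC119630413 on chromosome 24, both higher.

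Among the remaining named falls, serpin-23 (gene ID 100272188), an inhibitor of serine proteases, was at 14.6, 19.6 and 20.77 CPM in batch 1 and at 5.42, 4.98 and 6.23 CPM in batch 2 (log2 fold change -1.72, SE 0.19, edgeR adjusted p = 0.0178). It was the 1 called gene of 16 tested serpins (6.25%, against 1.32% of all genes). Ci-b1, a chymotrypsin inhibitor, was at 9.44, 25.6 and 18.9 CPM against 3.70, 4.45 and 3.72 CPM (-2.18, SE 0.35, adjusted p = 0.0431). Ggamma30A, a G protein subunit, Rab11, a small GTPase of membrane recycling, and SGF1, a forkhead factor known from silk genes, fell by 1.23, 0.77 and 1.41 on the log2 scale (adjusted p = 0.0178, 0.0294 and 0.0434) and were named after their values were seen. The 5 calls held without batch 1 trimolter 1 or 2 and were lost without batch 1 trimolter 3 or any batch 2 library (adjusted p of up to 0.194).

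Heat shock genes did not pass in this comparison: 0 of 10 were called, where 1.32% of all genes were. Their fold changes were below 0 for 7, and the median was -0.26, or -0.0573 without batch 1 trimolter 3 and -0.116 without batch 2 trimolter 2. Hsp90 was at 236.1, 261.1 and 506.8 CPM in batch 1 and at 196.7, 269.4 and 251.1 CPM in batch 2 (log2 fold change -0.49, 95% interval -1.22 to 0.25, adjusted p = 0.377). Hsp23.7, a small heat shock gene, was at 5.73, 13.7 and 38.9 CPM against 11.6, 11.9 and 10.96 CPM (-0.76, -2.16 to 0.64, adjusted p = 0.469). In both genes batch 1 trimolter 3 was the highest of the 6 libraries, and the batch 2 values lay within the batch 1 range or just below it. The fold change of Hsp23.7 was 0.24 without that library. The gene listed as HSP70, whose RefSeq synonym is grp78, a chaperone of the endoplasmic reticulum, was at 309.9, 560.3 and 1080 CPM against 275.7, 267 and 285.4 CPM (-1.24, SE 0.41, adjusted p = 0.141). The 5 tested chaperones of the endoplasmic reticulum were all below 0, with a median of -0.75 and none called. Hsc70-4, the constitutive cytosolic chaperone, was at 5678, 6960 and 5573 CPM against 8660, 8339 and 8255 CPM, all batch 2 libraries above batch 1 (0.47, -0.03 to 0.98, adjusted p = 0.233), and was named after its values were seen.

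Cytosolic ribosomal protein genes leaned the other way from the cuticle, with no single call. Of 79 tested genes 76 had fold changes above 0, where 4940 of all 10260 genes had. Their median was 0.33, and 54 had all batch 2 libraries above batch 1, as had 16.6% of all genes. RpL27, named after its values were seen, was at 338.2, 395.1 and 311.4 CPM in batch 1 and at 624.5, 641.2 and 665.6 CPM in batch 2 (log2 fold change 0.89, SE 0.16, adjusted p = 0.0529). The fit to all 12 libraries called 24 of the 79 ribosomal genes higher and 1 lower, where it called 7.49% of all genes higher and 8.03% lower. Their summed share was 5.55%, 7.41% and 6.18% of counts in batch 1 libraries 1, 2 and 3 and 7.93%, 8.17% and 7.67% in batch 2. Ribosomal proteins of the mitochondrion lay on the other side: 9 of 10 fold changes were below 0, with a median of -0.42 and none called.

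Detoxification enzymes gave 1 call, that of UGT33D7 among 27 glycosyltransferases (3.70%, against 1.32% of all genes). Of 19 glutathione transferases 16 were above 0, with a median of 0.46, 9 lay wholly above batch 1 (47.4%, against 16.6% of all genes) and 0 were called. GSTo2, the one with the smallest p, was at 45.5, 51.4 and 42.5 CPM in batch 1 and at 77.5, 70.9 and 76.3 CPM in batch 2 (log2 fold change 0.69, SE 0.12, adjusted p = 0.0529). GSTe4 was at 13.2, 11.3 and 1.83 CPM against 36.3, 34.1 and 32.1 CPM (1.97, SE 0.56, adjusted p = 0.11). Both were named after their values were seen. Of 26 cytochrome P450 genes of families that include detoxifying enzymes 0 were called, with a median of 0.23.

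Haemocyte transcripts were also higher in the batch 2 libraries, without a call. Their summed share was 0.118%, 0.342% and 0.157% of counts in batch 1 libraries 1, 2 and 3 and 0.437%, 0.448% and 0.503% in batch 2, so that the groups did not overlap. PPO1, a prophenoloxidase of the melanization cascade made by haemocytes, was at 109.3, 693.3 and 224.6 CPM against 1170, 1113 and 1320 CPM (log2 fold change 1.81, SE 0.60, adjusted p = 0.144). PPO2 (1.60, SE 0.51) and the scavenger receptor gene Scr-c (1.70, SE 0.33) had adjusted p = 0.134 and 0.061, and NimB was at 0.14 with overlap. Batch 1 trimolter 2 had the most haemocyte transcripts of its group. Among the named rises, CLIP3, Slp, Cyp306a1 and Jheh-lp2 were highest within batch 1 in the same library, and Faah, Bmp-2 and UGT33D7 in library 1. Whether haemocyte content had a part in the other differences was not tested. The 4 markers were tested of 5 in the list, and PPO1, PPO2 and Scr-c were named after their values were seen.

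**Figure D4:**
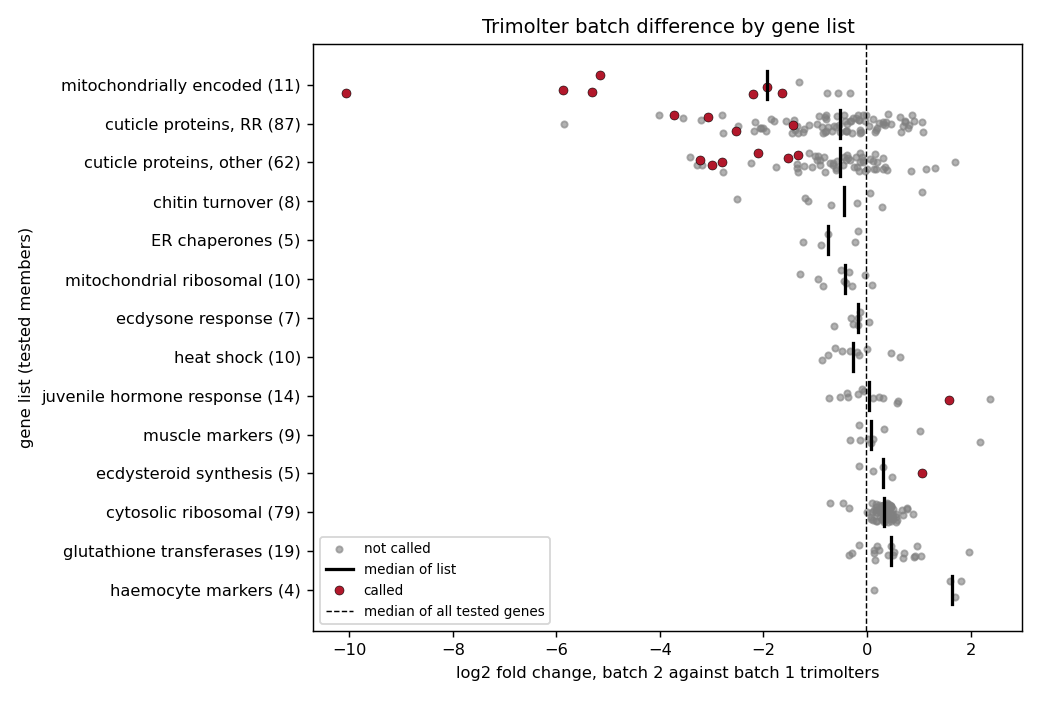
Log2 fold change of batch 2 against batch 1 trimolters for the members of 14 gene lists, with 1 point per tested gene (red, adjusted p under 0.05; grey, not called), the median of each list as a bar and that of all genes as a dashed line. The mitochondrially encoded genes have a median of -1.94, the RR cuticle genes of -0.52 and the cytosolic ribosomal genes of 0.33, against -0.02 for all genes.

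The same batch contrast in the tetramolters, 3 libraries per batch, served as the closest comparison, in 1 model over all 12 libraries. The difference between the contrasts was called for 5764 of 10721 genes (53.8%) and for 113 of the 135 genes called in trimolters. The 135 were chosen by the trimolter contrast, which is part of the difference, so this count is raised by the choice. Of the 78 genes higher in batch 2 trimolters, 12 were called higher and 41 called lower in batch 2 tetramolters, and 25 did not pass. Of the 57 lower genes, 25 were called lower and 23 higher, and 9 did not pass. The share of all genes called in the tetramolter contrast was not counted, so these counts have no background to be read against. Cuticle genes were among those that differed between the contrasts. CPR104 fell in trimolters but was at 0.273, 0.999 and 1.46 CPM in tetramolters of batch 1 and at 250.7, 288.2 and 252.6 CPM in those of batch 2 (log2 fold change 8.17, SE 0.53, edgeR adjusted p = 1.57e-06). Batch 1 trimolters 1 and 3 were thus close to the batch 2 tetramolters, and batch 2 trimolters stood between the tetramolter groups. Of 96 tested RR genes the difference was called positive for 67 and negative for 5, with a median contrast of 1.93 in tetramolters. Over the 10260 genes of the trimolter test the difference was called positive for 2824 and negative for 2798.

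ND2, ND4L, ND5, ND1 and ATP6 were called lower in batch 2 in both molting types. The summed share of mitochondrially encoded protein genes was 1.27%, 0.696% and 0.973% of counts in batch 1 trimolters and 0.587%, 0.581% and 0.507% in those of batch 2, without overlap. In tetramolters it was 0.636%, 0.555% and 0.584% against 0.506%, 0.649% and 0.58%, with overlap. ND2 was at 40.2, 58.9 and 72.0 CPM in batch 1 tetramolters and at 0.128, 0.259 and 0.123 CPM in batch 2 (-8.33, SE 0.64, adjusted p = 7.78e-07), and the difference from trimolters did not pass (1.74, adjusted p = 0.167). ND5 and ND1 fell less in tetramolters (-2.77 and -2.47), and for them the difference passed (2.54 and 2.69, adjusted p = 0.00404 and 0.000319). Hsp90 and Hsp23.7, which did not pass in trimolters, were called higher in batch 2 tetramolters, at 3.38 and 5.85 (adjusted p = 5.4e-06 and 3.08e-05), and the differences were called too (3.87 and 6.61, adjusted p = 1.85e-05 and 9.21e-05). Cyp306a1, higher in batch 2 trimolters, was lower in batch 2 tetramolters (-1.92, SE 0.15), where its batch 1 libraries were at 66.8, 61.9 and 64.5 CPM and its batch 2 libraries at 16.9, 19.7 and 14.3 CPM.

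**Figure D5:**
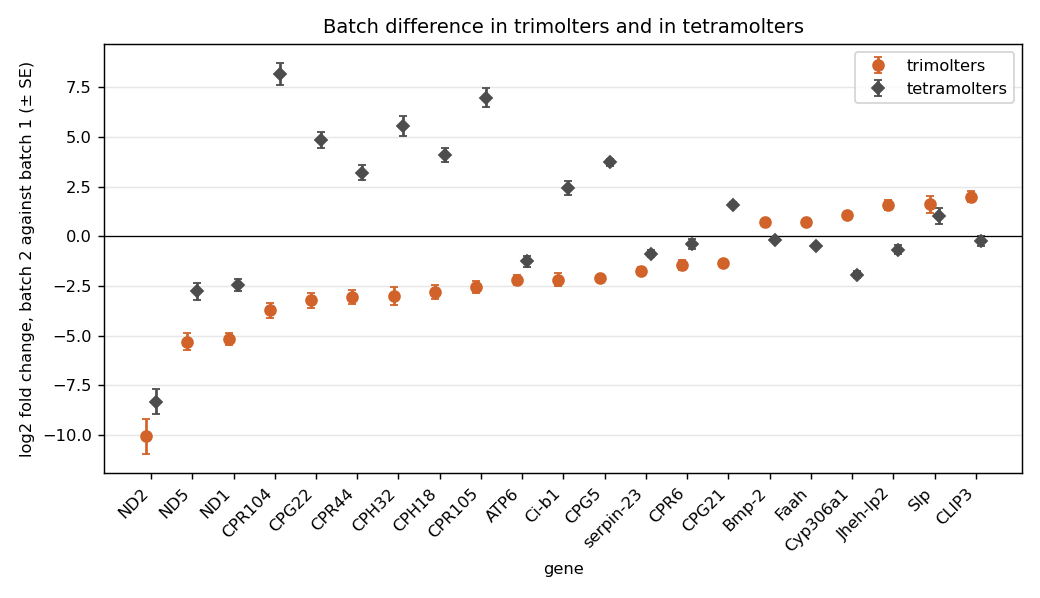
Log2 fold change of batch 2 against batch 1 in trimolters (orange circles) and tetramolters (grey diamonds) from the fit to all 12 libraries, for the named called genes other than UGT33D7 and ND4L, with SE as error bars. ND2, ND5, ND1 and ATP6 lie below 0 in both, while CPR104 lies below 0 in trimolters and at 8.17 in tetramolters.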

How the data were processed

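Poly(A) RNA of 12 cephalothorax libraries was sequenced in pairs, per the labels' protocols. The submitters' processing notes name DESeq2 1.38.3, StringTie 2.2.1, HISAT2 2.2.1 and Trimmomatic 0.39, and the extract protocol HISAT2 2.0.5. Not given in the sources used here: counter, genome build, annotation, use of strand. The deposited count table holds raw whole-number counts per gene, per the values, and the authors' FPKM table holds values scaled by length and depth. Because batch 1 trimolter 2 has no FPKM values, its column was the 1 column of per-sample values left unused.

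Of 17583 rows, 511 were numbered by the authors as loci outside the annotation (0.21% to 0.264% of a library's counts) and were left out. Symbols came from the RefSeq table of ASM3026992v2, which matched 14945 rows and was used for names, biotypes and neighbours only. The 6 trimolter libraries were fitted in R 4.3.3 with edgeR 4.0.16 (glmQLFit and glmQLFTest, the quasi-likelihood test), using TMM factors and filterByExpr at a minimum count of 10, which left 10260 genes. P-values are 2-sided, adjusted by Benjamini and Hochberg over all tested genes, and called under 0.05. Values in CPM are scaled by TMM over the 6 libraries (over all 12 for tetramolters), SEs come from the fitted weights and moderated dispersion, and intervals from these with 95% coverage. Exact intervals, and the floor of 3 counts over a group, cover counting error only. Tetramolters entered 1 model of all 12 libraries with the difference of the 2 batch contrasts. The alternatives were other scaling factors, no filter, DESeq2 1.42.0, limma 3.58.1 with voom and quality weights, limma on log2 FPKM with pseudocounts of 1 and 0.1, a replicate block, the loci outside the annotation kept and each library left out.

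Named genes were up to 12 rises and 12 falls of largest size, taken from called genes that had a symbol, log2 CPM averaging at least 1 and groups without overlap (6 rises qualified), fixed hormone and heat shock genes, and up to 4 called members of each of 38 lists by smallest p. The libraries, lists and genes were chosen with earlier results of these data known. Replicates of a group differed by more than sampling noise in each pair (chi-square per degree of freedom 17.6 to 305.7). The test was also run on simulated counts, but no outcome of that run is given, so nothing is concluded from it about error rates. In particular, it does not show how the test behaves when replicates spread unequally between the batches, as they did here. Explanations for the differences were not weighed.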

Additional observations from a re-analysis of the deposited data

Results flagged for a closer look

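For 19 of the 23 named genes called in trimolters, the change from batch 1 to batch 2 differed between tetramolters and trimolters by the edgeR test of the difference itself, in 1 model of 12 libraries (53.8% of all 10721 tested genes passed it). These genes were chosen by the trimolter contrast, which enters the difference with a minus sign. Passing, and a sign opposite to the trimolter change, were therefore favoured by the choice. Values are the tetramolter minus the trimolter contrast on the log2 scale. Among cuticle genes the difference was 11.9 for CPR104, 9.52 for CPR105, 8.55 for CPH32, 8.05 for CPG22, 6.90 for CPH18, 6.27 for CPR44, 5.83 for CPG5, 2.92 for CPG21 and 1.03 for CPR6. It was 4.63 for Ci-b1, a chymotrypsin inhibitor, and 0.841 for serpin-23. Among mitochondrially encoded genes it was 2.69 for ND1, 2.54 for ND5 and 0.94 for ATP6. Among genes that rose in batch 2 trimolters the difference was -2.99 for Cyp306a1, -2.26 for Jheh-lp2, -2.24 for CLIP3, -1.23 for Faah and -0.868 for Bmp-2. In tetramolters alone CLIP3 and Bmp-2 did not pass (edgeR adjusted p = 0.446 and 0.212). Cyp306a1, Jheh-lp2 and Faah were called lower in batch 2 tetramolters. The adjusted p-values of the difference ran from 6.93e-07 (CPG5) to 0.0493 (ATP6), from edgeR with 3 libraries per group.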

How the results depend on the processing

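The count of 135 called genes (78 higher, 57 lower) was within 1.5 times with RLE factors (135), upper quartile factors (159) and no filter (160). Larger counts came from DESeq2 (1108, with 583 higher, 525 lower and 468 by at least 1 log2 unit), limma-voom with quality weights (4168, 2122, 2046 and 1123), the fit to all 12 libraries (1664, 803, 861 and 534), limma on log2(FPKM + 1) of 5 libraries (1182, 734, 448 and 476), the same with 0.1 (1125, 707, 418 and 605) and the loci outside the annotation kept (412, 220, 192 and 224). In the last, 243 of 324 such loci were themselves called, beside the 412 of 10260 other genes. Small p-values of added rows loosen the adjustment for all genes, but library totals and scaling changed in that fit as well. The causes of these larger counts were not tested. In the reported fit 220 genes had an adjusted p under 0.06. All 135 genes were among those called by DESeq2, limma-voom, FPKM + 0.1 and with those loci kept. With 1 library left out the count ranged from 1 to 1120, from 0 to 591 higher, 1 to 658 lower and 1 to 583 by at least 1 log2 unit. Same-numbered trimolters of the batches deviated together with correlations of 0.0509, 0.0139 and -0.0268, so they share only a number. With a replicate block 33 genes were called, 17 higher and 16 lower, 33 by at least 1 log2 unit, and 29 of them were among the 135. Of 23 named calls 12 were lost with the block, and 1 each with RLE factors, upper quartile factors and no filter. The difference between the contrasts kept its count within 1.5 times in each of its alternatives: 5773 with RLE factors, 7326 in limma-voom, 5606 without a filter, 5701 with the block, and 5212 to 6318 with 1 library left out. In the trimolter contrast none of the 23 named calls changed direction in any of these alternatives, nor did any of the 135 genes with 1 library left out.

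Fold changes near 0 changed sign. Hr3 was at 0.318 in limma-voom and E75 at -0.00186 and -0.00173 on FPKM (pseudocounts 1 and 0.1), where Cyp315a1 was at -0.0124 with 0.1. With 1 library left out the ranges were -1.2 to 0.242 for Hsp23.7, -0.413 to 0.0237 for Hr3, -0.547 to 0.0372 for Cyp302a1, -0.281 to 0.0722 for EcR, -0.267 to 0.211 for jhe1, -0.0296 to 0.15 for E75, -0.0886 to 0.287 for Cyp315a1, -0.0856 to 0.752 for Jhdk, -0.0422 to 0.93 for Cyp314a1. For the difference between contrasts, ND4L was at 0.0144 with RLE factors and 0.027 with no filter, and with 1 library left out -0.855 to 0.859 for ND4L, -0.233 to 0.201 for Hr3, -0.318 to 0.331 for Cyp302a1 were the ranges. At a group total of 3 counts or fewer, as for ND4L and UGT33D7, depth limits the fold to the intervals given.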
